A study of Mus musculus with 23 samples.

Results

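The unfolded protein response and the integrated stress response were followed here through a list of 32 genes, chosen by symbol for their known roles, out of 24421 genes in the count table. All 32 had a row, and all 32 were among the 15475 genes that passed the filter on low counts. RNA came from the hippocampus of mouse pups of both sexes on postnatal day 14, in 23 polyA libraries. Their strain is not given in the labels. Pups with moderate phlebotomy-induced anemia (mPIA) were bled from day 3 until the haematocrit reached a goal of 25%, and pups with severe phlebotomy-induced anemia (sPIA) until it reached 18%. Blood was drawn at 5.25 µl per g 2 times a day until the goal was met, and at 3.5 µl per g once a day after that until day 14. Non-bled controls (NBC) had a needle prick at the neck and no blood loss. Each group held 4 libraries, apart from NBC males with 3. The labels do not say how litters were divided, so p-values measure the spread between these samples.

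The endoplasmic reticulum (ER) folds and quality-controls membrane and secreted proteins, a heavy load for neurons that build synapses and for myelinating glia. When misfolded proteins accumulate, the sensors ATF6, IRE1 (Ern1) and PERK (Eif2ak3) raise the supply of chaperones and of the degradation machinery and slow translation. PERK shares its substrate eIF2 with the kinases GCN2, PKR and HRI, which respond to amino acid shortage, double-stranded RNA and haem shortage, and this shared branch acts through the factors ATF4 and CHOP (Ddit3). Gene counts do not show the splicing of Xbp1, the cleavage of ATF6 or the phosphorylation of eIF2, so only the transcript side of these pathways was measured.

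The ATF6 and XBP1 branches are known to act through the ER stress response element (ERSE), which reads CCAAT, then any 9 bases, then CCACG, and the shorter ERSE-II, which reads ATTGG, any 1 base and CCACG. Promoters were searched on both strands in RefSeq windows (GRCm38.p6) running from 250 bases before to 50 bases after the start of each gene, and 29 of the 32 genes had such a window (Hyou1, Manf and Atf6 did not). An ERSE was found in 8 of these 29 genes, and in 37 of all 27025 genes with a window (0.137%). The 8 are shown because 4 of them rose in sPIA females and 4 did not pass the test. Each line gives bases on the gene's own strand with the ERSE in capitals, and a site that reads CGTGG first lies on the other strand.
Hspa5, chr2:34772020-34772048, plus strand: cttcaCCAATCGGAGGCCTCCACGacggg
Hsp90b1, chr10:86705523-86705666, minus strand: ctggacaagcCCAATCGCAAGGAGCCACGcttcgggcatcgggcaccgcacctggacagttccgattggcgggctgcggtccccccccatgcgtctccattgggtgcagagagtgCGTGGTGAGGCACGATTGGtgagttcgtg
Calr, chr8:84847065-84847103, minus strand: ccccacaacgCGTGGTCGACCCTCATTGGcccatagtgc
Canx, chr11:50325790-50325828, minus strand: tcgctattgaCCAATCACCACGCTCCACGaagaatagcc
Pdia6, chr12:17266481-17266519, plus strand: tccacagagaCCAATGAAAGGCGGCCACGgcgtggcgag
Creld2, chr15:88819510-88819548, plus strand: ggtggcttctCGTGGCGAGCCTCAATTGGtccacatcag
Dnajc3, chr14:118937817-118937855, plus strand: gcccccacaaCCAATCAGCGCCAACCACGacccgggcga
Syvn1, chr19:6046522-6046560, plus strand: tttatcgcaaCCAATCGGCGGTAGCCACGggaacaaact
Hsp90b1 is the only one of these genes with 2 matches in its window, one on each strand. The GENCODE model of Hspa5 begins before the RefSeq start, so its match lies within the first GENCODE exon, while the other matches shown lie before both starts.

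The PERK branch is known for another kind of element, in which ATF4 pairs with a C/EBP factor, and its core TTGCATCA was found in 2 of the 29 genes against 1.03% of all genes. Both are printed because they stand for genes that did not pass the test in any comparison, with the ATF4 core and, in Herpud1, also an ERSE-II in capitals.
Herpud1, chr8:94386307-94386397, plus strand: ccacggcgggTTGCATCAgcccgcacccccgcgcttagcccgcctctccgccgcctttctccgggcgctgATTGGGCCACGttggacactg
Chac1, chr2:119351039-119351066, plus strand: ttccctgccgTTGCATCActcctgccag
An ERSE-II was found in 2 of the 29 genes, Herpud1 and Dnajb11, against 0.0444% of all genes, and the Dnajb11 match lies after the start. The XBP1 element core TGACGTGG was found in 0 of the 29 and in 0.714% of all genes. A match is a run of letters in a window and says nothing of binding in these animals.

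Library totals ran from 15234793 to 26355712 counts, with a single deeper library, mPIA female 3, at 44362539 counts. All 10 markers of hippocampal neurons were present in each library, among them Camk2a at 3235 to 4574 CPM (counts scaled to a common library total, with TMM-normalised library sizes). Ttr, an abundant transcript of the choroid plexus, a neighbouring tissue, exceeded 1000 CPM in 4 libraries: NBC female 2, sPIA female 2, NBC male 3 and NBC male 4. The column codes of the table form series whose meaning is not given. Some libraries share the first part of their code, within a group (NBC female 1 and NBC female 2) or across groups. Whether the libraries of a group are independent is therefore not known. Codes of NBC and mPIA females start with a number, those of mPIA males with M, and those of sPIA females, NBC males and sPIA males with P. Code series and anemia therefore cannot be told apart when sPIA females are compared with NBC or mPIA females, or mPIA males with any male group. Both sex differences have the same limit, since for sPIA the female change crosses code series and the male change does not, and for mPIA the reverse holds. The comparisons of mPIA with NBC females and of sPIA with NBC males each lie within a single kind of column code. The sample descriptions also hold an S number for each library, whose meaning is not given. All sPIA libraries, of both sexes, have a lower run of S numbers than all NBC and mPIA libraries. Every comparison of sPIA with another group, sPIA with NBC males included, therefore coincides with this numbering too.

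In sPIA females 7 of the 13 listed chaperones, disulfide isomerases and co-chaperones of the ER were higher than in NBC females. Of the 11 listed factors, targets and amino acid enzymes of the integrated stress response 0 passed the test. For so few genes a count of 0 lies near the shares of all genes given next, so it does not set them apart. In the comparison of sPIA with NBC females 8 of 32 genes rose (25%) and 0 fell at an adjusted p under 0.05 (edgeR's quasi-likelihood test, Benjamini-Hochberg adjustment over 15475 genes), where 8.12% of all genes tested rose and 7.86% fell. The genes that rose were the chaperones Hspa5 and Hsp90b1, the lectins Calr and Canx, the disulfide isomerases Pdia3 and Pdia4, the co-chaperone Dnajb9 and the sensor Atf6. Rises were modest, from 1.17-fold for Pdia3 to 1.34-fold for Hsp90b1. Over all 32 genes the median log2 change was 0.13, and 21 of the 32 changes were positive, against 50% of all genes. In whole tissue, fewer cells of a type and less RNA per cell cannot be told apart, and the same holds for more of either.

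**Figure D1:**
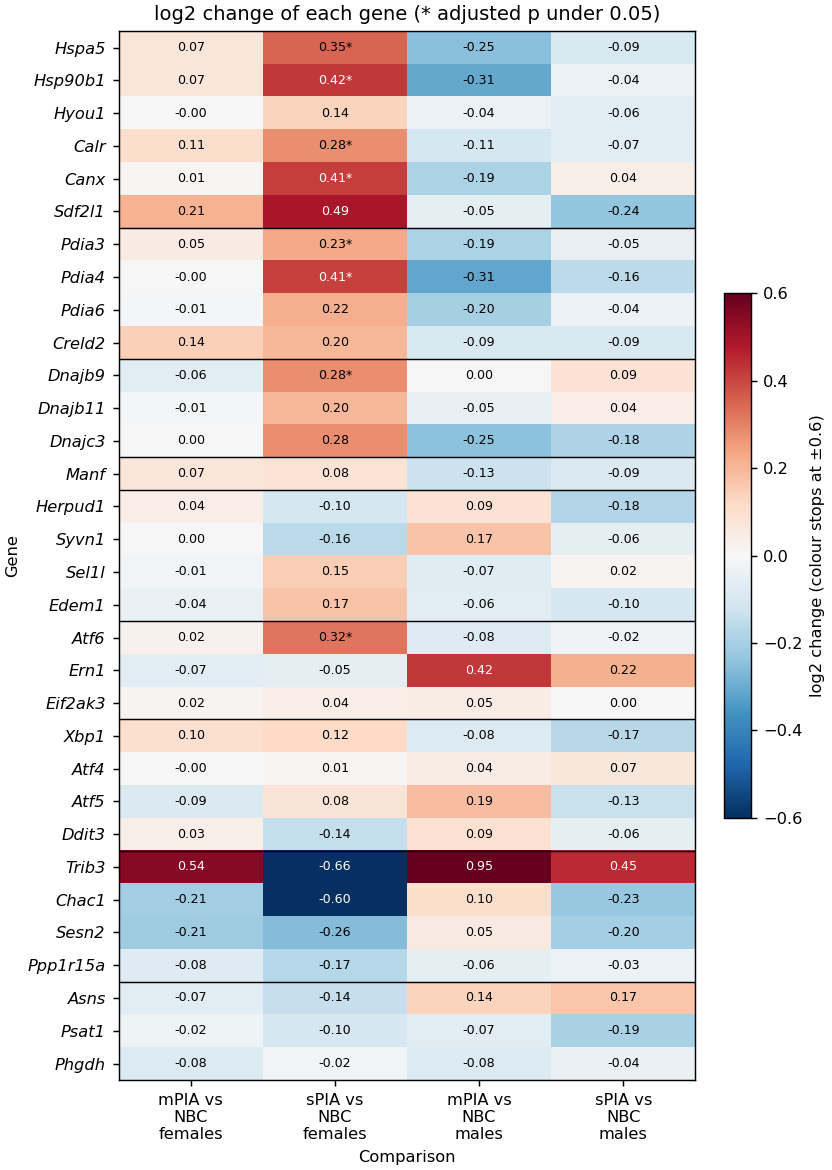
The log2 change of each of the 32 genes (rows, grouped by role with lines between groups) in mPIA and sPIA against NBC of the same sex (columns), where an asterisk marks an adjusted p under 0.05. All 8 asterisks stand in the column of sPIA females, 7 of them among the chaperones, isomerases and co-chaperones and 1 at Atf6.

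Among the chaperones, Canx, the membrane-bound lectin that holds newly made glycoproteins, rose in each sPIA library. Its levels were 392, 413, 420.3 and 406 CPM in NBC females and 538, 545, 543 and 547 CPM in sPIA females. Each sPIA library lay above each NBC library, and the 4 sPIA libraries varied by 0.687% (coefficient of variation). The log2 change was 0.41 (edgeR adjusted p = 4.52e-05, SE 0.06).

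Hsp90b1 encodes GRP94, the ER form of HSP90, and its promoter holds the pair of elements printed above. It stood at 378, 409.9, 397 and 327 CPM in NBC females and at 502, 489.7, 525 and 512 CPM in sPIA females, again without overlap. Its log2 change was 0.42 (edgeR adjusted p = 0.000683, SE 0.08). In the transcript model, 13.8% of its 50-base words also occur in other genes, chiefly the antisense gene 1810014B01Rik, and the strand setting of the counting is not given.

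Hspa5 encodes BiP, the ER HSP70 chaperone that also holds the sensors inactive. NBC females had 293, 358, 298 and 246 CPM and sPIA females 377, 333, 408 and 405 CPM. Here the groups overlapped, since sPIA female 2 lay below NBC female 2, and both are libraries with choroid plexus transcripts. The log2 change was 0.35 (edgeR adjusted p = 0.0191, SE 0.10), and the adjusted p rose above the threshold when NBC female 1 (0.0546), NBC female 4 (0.0682), sPIA female 3 (0.0645) or sPIA female 4 (0.0539) was left out.

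Calr, the soluble lectin that works beside Canx, had 461, 483, 469.8 and 342 CPM in NBC females and 538, 517, 540.1 and 535 CPM in sPIA females. The groups did not overlap, and NBC female 4 stood far below the other 3 controls. The log2 change was 0.28 (edgeR adjusted p = 0.0294, SE 0.09), and it was 0.18 with an adjusted p of 0.114 without NBC female 4. Leaving out sPIA female 3 (0.0645) or sPIA female 4 (0.0533) also lifted the adjusted p above the threshold.

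The remaining ER chaperones did not pass the test. Sdf2l1, a BiP co-factor of low abundance, had 4.17 to 5.66 CPM in NBC females and 5.32 to 7.86 CPM in sPIA females, so the groups overlapped, with a log2 change of 0.49 (edgeR adjusted p = 0.124, SE 0.21). Hyou1, a large HSP70-like protein that serves BiP as exchange factor, had a log2 change of 0.14 (adjusted p = 0.166, SE 0.07).

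Disulfide isomerases form and rearrange the disulfide bonds of secreted proteins. Pdia4 stood at 45.2, 49.02, 45.4 and 37.8 CPM in NBC females and at 59.4, 52.04, 61.7 and 62.7 CPM in sPIA females. Every sPIA library exceeded every NBC library, with sPIA female 2 the lowest of the 4. The log2 change was 0.41 (edgeR adjusted p = 0.00265, SE 0.09). Pdia3, the partner of both lectins, rose from 295, 328, 319 and 274 CPM to 347, 356, 366 and 353 CPM without overlap. That is a log2 change of 0.23 (edgeR adjusted p = 0.0151, SE 0.06), which was 0.19 with an adjusted p of 0.0606 without NBC female 4. Pdia6 (log2 change 0.22, adjusted p = 0.113) and Creld2 (0.20, adjusted p = 0.316), which both carry an ERSE, did not pass.

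DnaJ co-chaperones deliver clients to BiP and stimulate its ATPase. Dnajb9 stood at 32.5, 42.6, 39.2 and 45.1 CPM in NBC females and at 48.6, 45.1, 51.6 and 47.7 CPM in sPIA females. The lowest sPIA library lay barely above the highest NBC library, at 45.13 against 45.11 CPM. The log2 change was 0.28 (edgeR adjusted p = 0.0312, SE 0.09). This call was lost without NBC female 1 (log2 change 0.20, adjusted p = 0.152), NBC female 3 (0.0623), sPIA female 3 (0.09999) or sPIA female 4 (0.0515). Dnajc3 and Dnajb11 also did not overlap between these groups, but their log2 changes of 0.28 (adjusted p = 0.0532) and 0.20 (adjusted p = 0.0598) did not pass. Over all 32 genes, 9 had every sPIA female above every NBC female and 2 the reverse, where the shares among all genes tested were 9.85% and 11.2%.

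Of the sensors, Atf6 alone passed the test. Atf6 stood at 74.9, 77.9, 81.4 and 76.0 CPM in NBC females and at 97.5, 100.03, 98.2 and 91.23 CPM in sPIA females. The groups were fully apart, and the log2 change was 0.32 (edgeR adjusted p = 0.00656, SE 0.08). Ern1, which encodes IRE1, the kinase and nuclease that splices Xbp1, ranged from 7.66 to 10.9 CPM in NBC females and from 6.95 to 10.6 CPM in sPIA females, with a log2 change of -0.05 (adjusted p = 0.882, SE 0.17). For Eif2ak3, the gene of PERK, the log2 change was 0.04 (adjusted p = 0.801, SE 0.08).

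**Figure D2:**
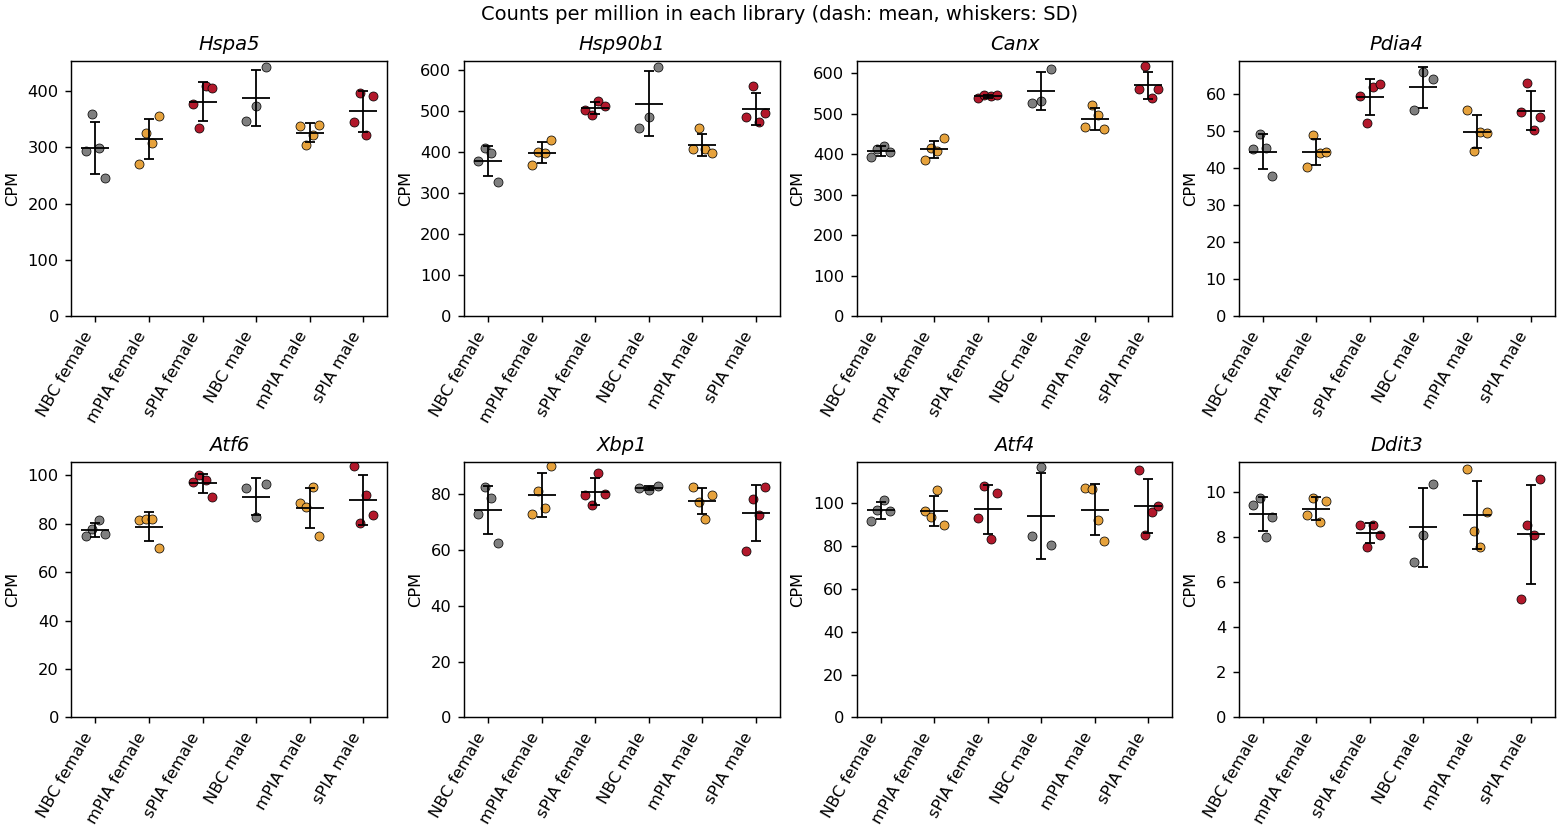
CPM of 8 genes (panels) in every library (points) of the 6 groups, with the group mean (dash) and SD (whiskers), on axes that start at 0. Hsp90b1, Canx, Pdia4 and Atf6 are higher in all 4 sPIA females than in all 4 NBC females, while Xbp1, Atf4 and Ddit3 overlap between the NBC group and both anemic groups of each sex.

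None of the 4 transcription factors passed the test in sPIA females. Xbp1 had 73.1, 82.8, 78.9 and 62.7 CPM in NBC females and 79.8, 76.2, 87.7 and 80.2 CPM in sPIA females, a log2 change of 0.12 (adjusted p = 0.391, SE 0.09). Atf4 had 92.0, 96.8, 102 and 96.6 CPM against 93.1, 108, 83.2 and 105 CPM, a log2 change of 0.01 (adjusted p = 0.974, SE 0.11). Ddit3, the gene of CHOP, had 9.46, 9.76, 8.01 and 8.92 CPM against 8.54, 7.59, 8.54 and 8.08 CPM, a log2 change of -0.14 (adjusted p = 0.621, SE 0.16). Both groups overlapped for each of the 3 genes. Atf5, a related factor that is itself translated under stress, had a log2 change of 0.08 (adjusted p = 0.703).

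The targets and feedback regulators of ATF4 and CHOP had negative log2 changes in sPIA females, and none passed the test. Chac1, which degrades glutathione, had 4.26, 5.45, 4.01 and 5.66 CPM in NBC females and 3.61, 2.51, 3.50 and 3.14 CPM in sPIA females. Every sPIA library lay below every NBC library, with a log2 change of -0.60 (adjusted p = 0.112, SE 0.26). With only these 2 groups in the fit Chac1 passed as lower (-0.60, adjusted p = 0.0412). Sesn2, an inhibitor of mTORC1 signalling, had a log2 change of -0.26 (adjusted p = 0.142) and passed as lower without sPIA female 1 (-0.39, adjusted p = 0.0226). Ppp1r15a, the phosphatase subunit GADD34 that reverses eIF2 phosphorylation, had -0.17 (adjusted p = 0.314). Trib3, a pseudokinase that binds ATF4, had only 0 to 19 counts a library. No fold is given for it, and the 0 in NBC male 4 allows a level of up to 0.157 CPM (3 counts, covering counting error only).

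None of the amino acid enzymes, which ATF4 is known to switch on, passed the test. Asns, asparagine synthetase, had 85.4, 89.5, 85.8 and 91.0 CPM in NBC females and 73.1, 84.2, 79.0 and 82.9 CPM in sPIA females. All sPIA libraries lay below all NBC libraries, at a log2 change of -0.14 (adjusted p = 0.267, SE 0.08). The serine synthesis enzymes Psat1 (log2 change -0.10, adjusted p = 0.233) and Phgdh (-0.02, adjusted p = 0.975) did not pass, and Phgdh is uncertain because 63.1% of its 50-base words also occur in 23 other genes. Across the 11 factors, targets and enzymes, 0 passed in this comparison, where 8.12% of all genes tested rose and 7.86% fell.

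ER-associated degradation removes misfolded proteins to the proteasome. Sel1l, the adaptor of the ligase complex, had a log2 change of 0.15 (adjusted p = 0.0583) and Edem1, which marks glycoproteins for disposal, 0.17 (adjusted p = 0.197). Syvn1, the ligase HRD1 itself, had -0.16 (adjusted p = 0.282) despite its ERSE, and Herpud1 had -0.10 (adjusted p = 0.496). The secreted factor Manf had 0.08 (adjusted p = 0.578). Of these 5 genes 0 passed.

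Changes of the 32 genes in sPIA females went with GC content. The 8 that rose had a GC content of 40.6% to 50% in their longest coding transcript (median 45.8%). The 24 that did not pass had a median of 53.4%, and the 11 factors, targets and enzymes 55.7%. Across the 32 genes Spearman's rho of GC content with the log2 change was -0.69, and across 14880 genes tested it was -0.48, where the points share the same 8 libraries and genes are not independent replicates. Of all genes under 45% GC, 23.1% rose, and of those from 45% to 50%, 7.59% did. These shares were 3 of 4 and 4 of 9 among the 32 genes. From 50% to 55% GC 2.59% of all genes and 1 of 10 listed genes rose, and above it 0.755% and 0 of 9.

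**Figure D3:**
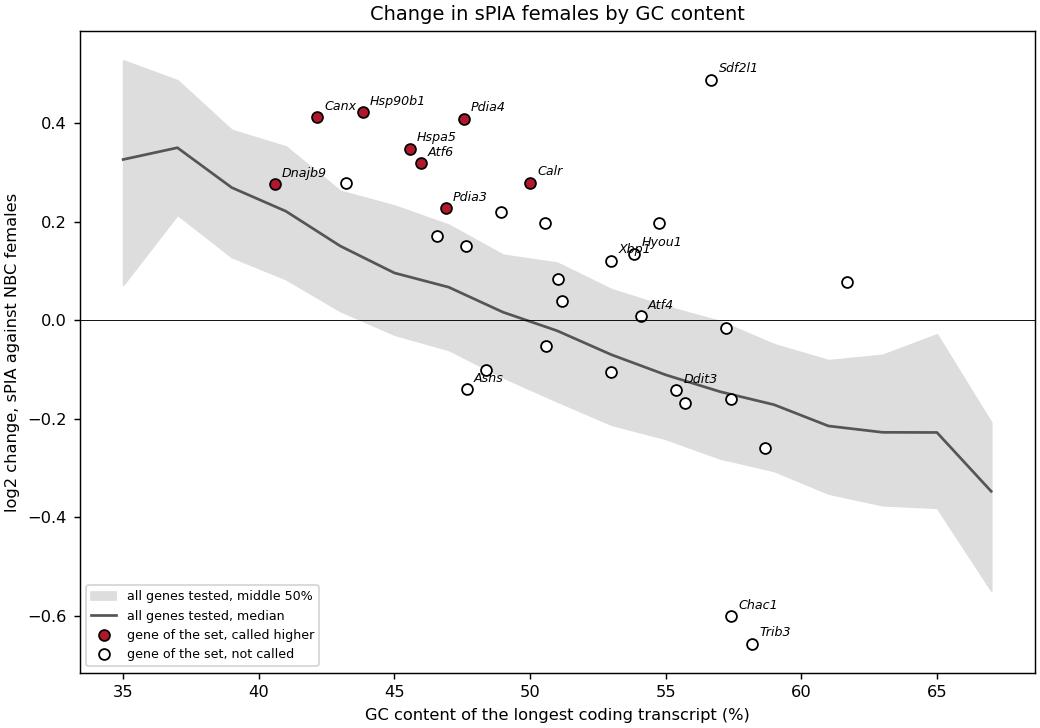
The log2 change in sPIA against NBC females (vertical axis) over the GC content of the longest coding transcript (horizontal axis, %), for the 32 genes (points, filled where they rose) and for all genes tested in bins of GC content (line at the median, band for the middle 50%). The genes that rose lie between 40.6% and 50% GC, 7 of the 8 above the band of genes of like GC content.

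With each library's trend of counts on GC content and transcript length removed, the number of genes that rose in sPIA females was again 8, against 3.38% of all genes that then rose, but the set changed. Calls were kept for 5 genes: Hsp90b1 (log2 change 0.30, adjusted p = 0.00744), Canx (0.21, adjusted p = 0.00467), Calr (0.32, adjusted p = 0.0300), Pdia3 (0.18, adjusted p = 0.0406) and Pdia4 (0.39, adjusted p = 0.00714). The change of Canx moved from 0.41 to 0.21, while that of Pdia4 moved from 0.41 to 0.39. Calls were lost for Hspa5 (0.25, adjusted p = 0.170), Dnajb9 (0.09, adjusted p = 0.539) and Atf6 (0.18, adjusted p = 0.162). Calls were gained for Hyou1 (0.20, adjusted p = 0.0376), Sdf2l1 (0.71, adjusted p = 0.0343) and Dnajb11 (0.24, adjusted p = 0.0330). Xbp1 (0.23, adjusted p = 0.106), Atf4 (0.15, adjusted p = 0.502) and Ddit3 (0.07, adjusted p = 0.877) again did not pass, nor did Chac1 (-0.39, adjusted p = 0.403).

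**Figure D4:**
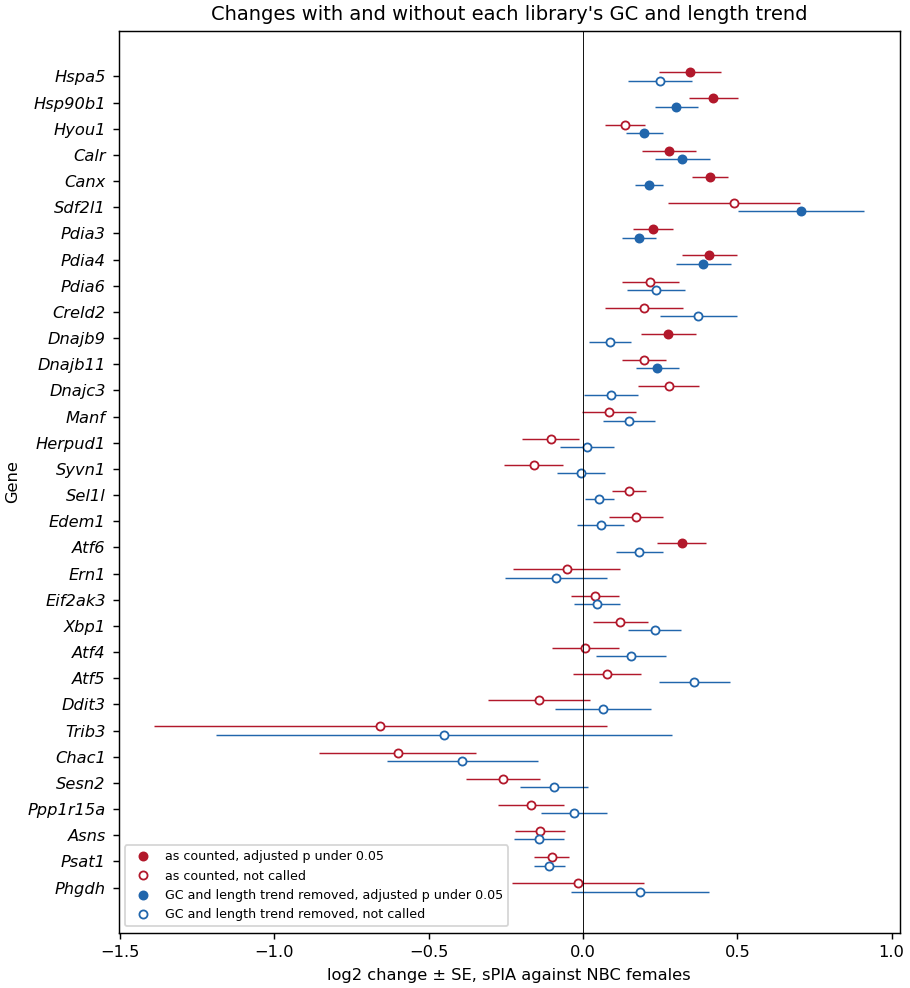
The log2 change with its SE (horizontal axis) of each of the 32 genes (rows) in sPIA against NBC females, as counted (red) and with each library's GC and length trend removed (blue), filled where the adjusted p was under 0.05. In both fits 8 genes are filled, and 5 of them are the same.

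Levels across the code series were set side by side for the 8 genes that rose. In all 8 the range of sPIA females overlapped that of NBC males, whose codes also start with P but whose S numbers lie apart. In 6 of the 8 every NBC male lay above every NBC female. The same held for every sPIA male in 5 of the 8 and for every mPIA male in 1. These 8 genes were chosen for low levels in the same NBC females relative to sPIA females. Shares over all genes were not counted for these ranges, so the counts describe the list only. For Canx, NBC males had 526, 530.3 and 609 CPM beside the 538 to 547 CPM of sPIA females, and for Pdia4 they had 55.5, 65.8 and 64.0 CPM beside 52.04 to 62.7 CPM. Over all 32 genes, 31 had overlapping ranges in these 2 groups, Ppp1r15a being the exception. The part of the code series, of the S numbers and of GC content in the rises was not tested beyond the values given.

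Some markers of cell types moved as well. The summed CPM of 10 excitatory neuron markers was 4386 to 4848 in NBC females and 5099 to 5607 in sPIA females, and that of 10 astrocyte markers 6349 to 6552 and 6863 to 8284. Neither pair of ranges overlapped, and the same was true of 10 endothelial markers (269.5 to 289 against 315 to 362). Camk2a alone made up most of the neuron sum. Single neuron markers changed by -0.57 to 0.48 (log2), with 3 called higher and 0 lower. Astrocyte markers changed by -0.39 to 0.76, with 4 called higher and 1 lower. The lists for oligodendrocytes, microglia and meningeal fibroblasts had 0 calls and sums that overlapped. The sum of 15 choroid plexus markers overlapped (161 to 2558 against 118 to 1996), and no marker of these lists was at 0 throughout a group. Without the 4 libraries rich in Ttr, 10 of the 32 genes rose in this comparison, where 5.75% of all genes did. The part of cell composition in the rises was otherwise not tested.

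Calls were also counted by the presence of an ERSE. Among the 8 genes with the element 4 rose in sPIA females (Hspa5, Hsp90b1, Calr and Canx), with a median log2 change of 0.28. Among the 21 with a window but no ERSE 3 rose, with a median of 0.01. These 21 include all 11 factors, targets and enzymes, whose GC content was given above, so the counts describe the list and are not a test.

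Severe and moderate anemia were compared within females. In sPIA against mPIA females 7 of 32 genes rose (21.9%) and 0 fell, where 8.67% of all genes tested rose and 7.48% fell. This comparison shares the sPIA libraries with the previous one, so the pair is not independent, just as both comparisons with NBC females share their controls. Hsp90b1 (log2 change 0.35, adjusted p = 0.00290, SE 0.08), Canx (0.40, adjusted p = 4.74e-05, SE 0.06), Pdia4 (0.41, adjusted p = 0.00204, SE 0.09), Dnajb9 (0.34, adjusted p = 0.00829, SE 0.09) and Atf6 (0.29, adjusted p = 0.0102, SE 0.08) rose in edgeR's test. In each of them every sPIA library lay above every mPIA library. The mPIA females had 386 to 439 CPM of Canx and 40.3 to 48.8 CPM of Pdia4. Cell type markers moved here too, since the summed excitatory neuron markers of mPIA females (4323 to 4520 CPM) lay below the sums of sPIA females given above, and so did their astrocyte markers (6245 to 6799 CPM). Of the 10 markers in each list 2 and 3 rose, and their part in the result was not tested.

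Dnajb11 and Sel1l joined the calls between sPIA and mPIA females. Dnajb11, the co-chaperone that hands nascent chains to BiP, stood at 64.6, 66.4, 67.6 and 69.4 CPM in mPIA females and at 78.3, 78.0, 77.3 and 75.3 CPM in sPIA females (log2 change 0.21, edgeR adjusted p = 0.0479, SE 0.07). Sel1l had 202, 209, 207 and 209 CPM against 217, 224, 232 and 254 CPM (0.16, edgeR adjusted p = 0.0375, SE 0.05). Neither gene overlapped between the groups, yet both calls were lost in most fits that left out a library. The log2 change was 0.20 to 0.23 for Dnajb11 and 0.12 to 0.19 for Sel1l over these fits. Dnajb11 kept its call in 1 of 8 fits that each left out a library, the one without mPIA female 4, with adjusted p up to 0.121. Sel1l kept its call in 3 of 8, and lost it without mPIA female 1, 2 or 3 or sPIA female 3 or 4, with adjusted p up to 0.152. With the GC and length trend removed 6 genes rose (3.95% of all genes), of which 4 were among the 7: Hsp90b1, Canx, Pdia4 and Dnajb11. Hyou1 and Atf5 were added.

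None of these genes passed the test with moderate anemia in females. In mPIA against NBC females 0 of 32 genes passed (edgeR), where 0.00646% of all genes tested did. At an unadjusted p under 0.05 the count was also 0 (0.355% of all genes), and DESeq2 called 0 (1 of all 15475 genes). Over all genes such p-values were rarer than expected even without any change. The test was therefore conservative in this comparison, and these counts of 0 carry little weight. For Hspa5 the log2 change was 0.07 (SE 0.10), for Canx 0.01 (SE 0.06) and for Pdia4 0.00 (SE 0.09). Of the 32 genes 0 had all mPIA females above or below all NBC females, where 0.795% and 0.75% of all genes did. Both groups belong to the same kind of code.

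In males none of the 32 genes was called in severe anemia. In sPIA against NBC males 0 of 32 genes passed, where 0.194% of all genes tested did. DESeq2 also called 0 of the 32, and 155 of all 15475 genes. A single gene, Psat1, had an unadjusted p under 0.05, as had 12.1% of all genes, with a log2 change of -0.19 (edgeR adjusted p = 0.162, SE 0.06). Canx measured 526, 530.3 and 609 CPM in NBC males beside 560.3, 618, 539 and 561 CPM in sPIA males, a log2 change of 0.04 (adjusted p = 0.862, SE 0.06). Hsp90b1 had 458, 486 and 607 CPM against 485, 561, 473 and 496 CPM, a log2 change of -0.04 (adjusted p = 0.901, SE 0.08). For Hspa5 it was 346, 373 and 443 CPM against 345, 397, 322 and 391 CPM, a log2 change of -0.09 (adjusted p = 0.787, SE 0.11). In all 3 genes NBC male 4 was the highest control, and it is also the library with the highest choroid plexus sum (6640 CPM, against 152 CPM in NBC male 2). The groups overlapped in each.

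In mPIA against NBC males 0 of 32 genes passed, where 0.653% of all genes tested did. Here 7 genes had an unadjusted p under 0.05, as had 16% of all genes: Hspa5, Hsp90b1, Canx, Pdia3, Pdia4 and Dnajc3 with negative changes and Ern1 with a positive one. Hsp90b1 was at 406, 458, 408 and 397 CPM in mPIA males (log2 change -0.31, edgeR adjusted p = 0.0718, SE 0.08). By DESeq2 it fell by 0.32 with an adjusted p of 0.0221, the only call of that tool among the 32 genes. Over all genes DESeq2 called 381 of 15475 here. NBC male 3 and NBC male 4 carried choroid plexus sums of 3510 and 6640 CPM, whereas mPIA males had 132 to 199.7 CPM. In this comparison 7 of the 32 genes had all mPIA males below all NBC males, a share that was 4.61% over all genes, and 0 had the reverse (5.18% of all genes). Without NBC male 2 the count of calls was 6, with 1 gene higher and 5 lower, where 7.17% of all genes were then called. With a choroid plexus score in the fit, 0 of the 32 genes passed. Since 0 had passed in the main fit too, this count cannot show a part of choroid plexus RNA. The fit without the Ttr-rich libraries leaves NBC male 2 as the only male control, so its calls are not weighed here. Its median log2 change over the 32 genes was -0.060, against -0.061 in the main fit. Since this median rests on a single control library, it cannot show whether choroid plexus RNA had a part either. The part of choroid plexus RNA in these values was not tested.

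Between sPIA and mPIA males 2 of 32 genes rose (6.25%), where 2.13% of all genes tested rose. These were Hsp90b1 (log2 change 0.27, edgeR adjusted p = 0.0419, SE 0.08) and Canx (0.23, adjusted p = 0.0252, SE 0.06). Canx had 468, 521, 497 and 463 CPM in mPIA males, all below the 539 to 618 CPM of sPIA males, and Hsp90b1 did not overlap either, where 4.85% of all genes had every sPIA male above every mPIA male. Both calls were lost without mPIA male 1, mPIA male 4 or sPIA male 2 (Canx down to 0.19, adjusted p = 0.0821, and Hsp90b1 down to 0.22, adjusted p = 0.135). Hsp90b1 was also lost without mPIA male 3 or sPIA male 1. With the GC and length trend removed 0 genes passed, against 1.2% of all genes.

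The difference between the sexes was tested directly, as the change in sPIA females minus that in sPIA males. It passed for 3 of 32 genes (9.38%), all more positive in females, where 0.601% of all genes tested were. For Pdia4 the difference was 0.57 (adjusted p = 0.0341, SE 0.13), from a log2 change of 0.41 in females and -0.16 in males. For Hsp90b1 it was 0.46 (adjusted p = 0.0477, SE 0.12) and for Canx 0.38 (adjusted p = 0.0329, SE 0.09), all by edgeR. Between the NBC groups, whose codes differ in series, Pdia4 was at 61.8 ± 5.52 CPM (SD, n = 3) in males against 44.4 ± 4.70 CPM (SD, n = 4) in females, and the sPIA means were 55.4 CPM in males and 59.0 CPM in females.

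These 3 sex differences did not keep their calls in every alternative fit. The fit without the 4 Ttr-rich libraries leaves NBC male 2 as the only male control and assumes that it varies like the other groups. Its calls are therefore not weighed here. The difference was then 0.51 for Pdia4, 0.34 for Hsp90b1 and 0.30 for Canx. Without NBC male 4 all 3 calls were lost, and likewise without NBC female 1, sPIA female 3 or sPIA male 4. Over all genes 147 of 15475 were called in the main fit, and 49 of 15633, 5 of 15467, 42 of 15457 and 17 of 15453 in these fits. Over the 15 fits that each left out a library the difference was 0.51 to 0.65 for Pdia4. It was 0.34 to 0.55 for Hsp90b1 and 0.31 to 0.43 for Canx. Pdia4 was also lost without NBC female 4, sPIA female 4, NBC male 3 or sPIA male 3 (adjusted p up to 0.0809 over all fits), and Canx only in the 4 fits named first (up to 0.0850). Hsp90b1 kept its call in 4 of 15 fits. Removal of the GC and length trend left 0 calls (0.269% of all genes), with Pdia4 at 0.56 (adjusted p = 0.0512), Hsp90b1 at 0.38 (adjusted p = 0.0831) and Canx at 0.23 (adjusted p = 0.110). For mPIA 0 of 32 sex differences passed and 0% of all genes did, with 5 of the 32 at an unadjusted p under 0.05 (7.13% of all genes) and 0 called by DESeq2.

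Other genes of the same pathways, 135 on a fixed list of which 131 were tested, were called in both directions. In sPIA against NBC females 9 rose (6.87%) and 8 fell (6.11%), both below the 8.12% and 7.86% of all genes. Ssr3, a subunit of the translocon-associated complex, rose by 0.34 (log2, edgeR adjusted p = 0.000782, SE 0.06) and Tmx1, a membrane-bound disulfide isomerase, by 0.51 (adjusted p = 0.00127, SE 0.10). Of 25 listed genes of folding and ER quality control 1 rose, Tmx1, and 1 fell, Sdf2 (-0.35, adjusted p = 0.00524). Genes of the integrated stress response were also among the calls. Stc2, which encodes the secreted stanniocalcin 2, rose by 0.93 (adjusted p = 0.00610), Cebpg, a C/EBP factor, by 0.33 (adjusted p = 0.0110) and the tRNA synthetase gene Eprs by 0.19 (adjusted p = 0.0356), while the amino acid transporter gene Slc7a3 fell by 0.84 (adjusted p = 0.0246). In sPIA against mPIA females 12 rose (9.16%) and 9 fell (6.87%), close to the 8.67% and 7.48% of all genes, Tmx1 again at 0.51 (adjusted p = 0.000946) and the ubiquitin ligase gene Rnf5 at -0.32 (adjusted p = 0.00100). In sPIA against mPIA males Eif2s1, the alpha subunit of eIF2, rose by 0.26 (adjusted p = 0.0456) and the transaminase gene Gpt2 fell by 0.27 (adjusted p = 0.0203), with 0 other calls. These shares of 0.763% each lay below those of all genes, of which 329 of 15475 rose and 433 fell. In both comparisons of males with NBC and in mPIA against NBC females 0 of these genes passed. Kdelr1, a receptor that returns chaperones with a KDEL tail such as BiP to the ER, differed between the sexes in its sPIA change, by -0.51 (adjusted p = 0.0232). It was the only 1 of the 131 called (0.763%), where 93 of all 15475 genes were called higher and 54 lower.

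The other eIF2 kinases were measured beside PERK. Eif2ak1 encodes HRI, which is held inactive by haem. Its mean was 68.4 ± 2.45 CPM in NBC females and 66.4 ± 2.09 CPM in sPIA females (SD, n = 4 each), with overlapping ranges and a log2 change of -0.04 (edgeR adjusted p = 0.698, SE 0.06). In males its log2 change in sPIA against NBC was 0.10 (adjusted p = 0.538, SE 0.06). Eif2ak2, the gene of PKR, had 0.36 in sPIA against NBC females (adjusted p = 0.170, SE 0.17), and Eif2ak4, the gene of GCN2, -0.16 (adjusted p = 0.249, SE 0.09). Against mPIA females Eif2ak4 fell by 0.25 (adjusted p = 0.0487). Transcript levels of these kinases do not show their activity.

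Across all libraries the 32 genes spanned a wide range of abundance. Per kilobase of transcript, Calr was highest at a mean of 230 CPM per kb, followed by Hsp90b1 (159.6), Pdia3 (122), Canx (115) and Hspa5 (93.5). Sensors were far lower, with Atf6 at 11.9, Eif2ak3 at 6.90 and Ern1 at 1.22 CPM per kb, and Trib3 was lowest at 0.137. Atf4 stood at 56.2 CPM per kb, above Ddit3 at 9.76. Within groups Psat1 (median coefficient of variation 3.17%) and Sel1l (3.50%) varied least, and Trib3 (68.3%), Phgdh (21.6%) and Chac1 (19.8%) most.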

How the data were processed

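The authors deposited whole-number read counts per gene, without normalization, for polyA RNA of 23 hippocampus libraries. The submitters' processing notes name the genome build mm10 and the tools TopHat2 (2.0.13), Subread, FastQC and edgeR. Annotation, strand setting and the handling of reads with several matches were not given in the sources used here. All 23 columns were matched to samples by name. Libraries were fitted together with 6 group means in edgeR 4.0.16 (R 4.3.3; TMM, filterByExpr with a minimum count of 10 and minimum total of 15, robust quasi-likelihood test, Benjamini-Hochberg threshold 0.05 within each of 8 comparisons). Levels are CPM. GC content and length came from GENCODE M21 (mm10). The test was checked on simulated counts for sPIA against NBC females only. These counts had the same spread in every group and no trend on GC content. The check therefore cannot show how the test behaves on these libraries. Replicates of a group were distinct libraries, at 3.09 to 31.4 for chi-square divided by its degrees of freedom. Values are given in full for listed genes that passed in any comparison and for Hspa5, Ddit3, Xbp1, Atf4 and Ern1; other pathway genes are named for the 2 smallest p-values per comparison, and the kinases in every case. Genes given outside this rule (such as Chac1, Asns, Sdf2l1, Psat1, Stc2, Cebpg, Eprs, Slc7a3 and Sdf2) were chosen after their values were seen. The 32 genes, the lists and the tests were chosen with earlier results of these data known. Alternatives were DESeq2 1.42.0, other size factors, no filter, fewer groups, each library left out, a replicate block, the GC and length trend, a choroid plexus score and counts thinned to the smallest library total. Leaving out libraries with Ttr above 1000 CPM was added after seeing the data.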

Additional observations from a re-analysis of the deposited data

Results flagged for a closer look

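In 10 of 160 sets of 4 libraries a single library lay far from the other 3 for a gene of the list, and chance alone flags about 1 in 20 such sets. Calr in NBC female 4 was at 342 CPM, against 461 to 483 CPM in the other NBC females. Pdia6 in sPIA female 2 was at 114 CPM (others 132 to 134), and Creld2 in sPIA female 3 at 15.96 CPM (others 12.99 to 13.3). Among mPIA females, Dnajb9 was at 35.5 CPM in library 1 (others 38.8 to 39.2) and Atf6 at 69.9 CPM in library 4 (others 81.4 to 82.0). In mPIA male 2 Hsp90b1 was high at 458 CPM (others 397 to 408) and Manf low at 36.4 CPM (others 42.5 to 43.6). Sdf2l1 in mPIA male 4 was at 7.99 CPM (others 4.99 to 5.45). Trib3, with few counts, stood out in NBC female 4 (0.456 CPM) and mPIA male 4 (0.615 CPM).

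The change under sPIA differed between females and males, by an interaction term in edgeR, for Hsp90b1 (log2 difference 0.46), Canx (0.38) and Pdia4 (0.57). Female changes were positive in all 3 genes. Every sPIA female lay above every NBC female in each, whereas the male groups overlapped.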

How the results depend on the processing

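Over 20 pairs of gene and comparison that passed, 0 changed direction in any alternative. All 20 stayed past the threshold with DESeq2, RLE size factors and counts thinned to the smallest library total. The number was 18 without the filter, 16 without the Ttr-rich libraries, 15 with the choroid plexus score, 15 with only the groups compared and 9 with the GC and length trend removed. The count of genes called in sPIA against NBC females was 8 to 11 in all these fits, and the 11 with only the groups compared hold 1 gene that fell, Chac1. Over all genes tested the main fit called 2472 of 15475. This was 2712 of 14709 with only the groups compared and 979 of 14882 with the GC and length trend removed. Leaving out libraries in turn gave 5 to 11 (5 without sPIA female 3 or sPIA female 4), and the 11 without sPIA female 1 hold 1 that fell, Sesn2. Calls over all genes were 1562 of 15457 without sPIA female 3, 1820 of 15457 without sPIA female 4 and 2705 of 15443 without sPIA female 1. For sPIA against mPIA females the count was 12 with only the groups compared, and 5 to 11 with libraries left out (11 without mPIA female 4). Over all genes the main fit called 2499 of 15475, and 3312 of 14779 were called with only the groups compared. These calls were 2316 of 15467 without mPIA female 4 and 1582 of 15459 without mPIA female 1, the fit with 5. For mPIA against NBC males DESeq2 called 1 gene, where it called 381 of all 15475, and libraries left out gave 0 to 6. The 6 came without NBC male 2, where 1124 of 15680 genes were called, and without NBC male 4 that number was 0 of 15633. For sPIA against mPIA males the count of 2 became 1 with only the groups compared, 1 with the choroid plexus score, 0 with the GC and length trend removed, and 0 to 3 with libraries left out. Over all genes 762 of 15475 were called in the main fit. In those fits it was 307 of 14756, 521 of 15475, 179 of 14882, and 230 of 15459 (without mPIA male 1) to 1340 of 15453 (without sPIA male 4). For the sex difference under sPIA the count of 3 became 0 with only the groups compared, with the GC and length trend removed and with the choroid plexus score. It was 0 to 4 with libraries left out. Over all genes 147 of 15475 were called in the main fit. In those fits it was 5 of 15318, 40 of 14882, 43 of 15475, and 5 of 15467 (without NBC female 1) to 327 of 15680 (without NBC male 2). For mPIA against NBC females, sPIA against NBC males and the sex difference under mPIA the count of listed genes was 0 to 0. The causes of these differences in count were not tested.

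Replicate numbers are shared across groups and were not taken as pairs, since the labels do not say what they mark. Deviations of same-numbered samples correlated at -0.0761 to 0.149 over 22 pairs, with 3 pairs over 0.1 and no comparison in which every pair was. All 3 lie in mPIA against NBC females (0.0358 to 0.149), where same-numbered libraries also share the first part of their column code, whose meaning is not given. With the block 0 genes passed in that comparison. With the replicate block 16 of the 20 pairs kept their call. The counts were 8 for sPIA against NBC females, 7 for sPIA against mPIA females, 1 for sPIA against mPIA males and 1 for the sex difference under sPIA. Over all 15475 genes tested they were 2374, 2412, 683 and 93. With the block and the GC and length trend removed together, the counts were 8, 5, 0 and 0 for the list and 962, 1149, 146 and 55 over all 14882 genes.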
